A study of Mus musculus with 6 samples.

Results

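Podocytes are the octopus-shaped epithelial cells that wrap the capillaries of the kidney glomerulus. Their interlocking foot processes are bridged by the slit diaphragm, a cell junction built around nephrin, and together with the glomerular basement membrane they keep plasma protein out of the urine. A podocyte does not divide in the adult, and its shape depends on an actin skeleton, a negatively charged surface coat and a small set of transcription factors. The 8 genes described here, Nphs1, Magi2, Podxl, Ptpro, Synpo, Wt1, Cdkn1c and Clic3, are used as markers of these cells in the kidney.

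Probes were taken where the accession that the array files give for a probe belongs to one of the 8 genes. This found 9 probes among 55681, 2 for Synpo and 1 for each of the other 7 genes. All 8 genes were among the 15307 genes tested. The arrays compared whole kidneys of 3 male C57BL/6J mice labelled as iNampt-conditional knockout with whole kidneys of 3 male C57BL/6J mice labelled as control, 1 single-colour Agilent array per animal. Nampt makes nicotinamide mononucleotide, the limiting step of NAD salvage, and the title of the series concerns Nampt and Sirt6 in proximal tubules and matrix deposition in diabetic nephropathy. The Cre driver, the ages, the genotype of the controls and any treatment that both groups shared are not given in the sources used here. The comparison therefore asks whether transcripts of a glomerular cell differ in whole kidneys where the title is about another cell type. In such bulk RNA, fewer podocytes and less of a transcript per podocyte cannot be told apart. Nor can transcript of the same genes from other kidney cells be separated, for the 8 genes or for the other lists.

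Between 57.3% and 63.3% of spots were well above background on each array, and no spot was saturated. All 6 arrays shared a slide, whose rows were read from the names of the deposited scanner files. Knockout 1 lay in its first row with the 3 controls, and knockouts 2 and 3 lay in its second row, where the lowest signal called above background was 29.6 and 32.2 units, against 18.5 to 20.9 units among the 4 arrays in row 1. The targeted gene was lower in the animals labelled as knockouts. The normalised log2 signal of Nampt, which is the log2 signal minus the 75th percentile of its array, was 1.80, 1.50 and 1.53 in the 3 knockouts and 2.78, 2.59 and 2.65 in the 3 controls (log2 difference -1.06 ± 0.10, SE; limma adjusted p = 0.0431). With the slide row as a block it was at -0.87 (adjusted p = 0.0733). On leaving out each array in turn, the adjusted p was 0.0138 without knockout 1 and 0.0754 to 0.184 without any one of the other 5. All 11 proximal tubule markers and all 9 markers of the loop, distal tubule and collecting duct were measured. So were 12 of 14 genes of the slit diaphragm and its partners. Of all 21154 named genes 15307 were measured, so these counts do not by themselves identify the tissue.

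None of the 8 podocyte genes passed the test between knockout and control kidneys. By limma with Benjamini-Hochberg adjustment over all genes, 0 of 8 had an adjusted p of 0.05 or below, where 0.17% of all genes did, 0.105% as higher and 0.0653% as lower in the knockouts. Likewise 0 of 8 had an unadjusted p under 0.05, where 12.8% of all genes did. The groups overlapped for all 8. Over all genes they did not overlap for 19.5%, with the knockouts above in 9.04% and below in 10.5%. Whether 0 of 8 differs from these shares was not tested. The log2 differences, knockout minus control, ran from -0.12 to 0.21, 6 above 0 and 2 below, with a median of 0.12, against a median of -0.0078 over all genes tested, of which 47.1% were above 0. In the first slide row alone, knockout 1 minus the 3 controls, the median over the 8 genes was -0.083, against -0.014 over all genes. Without knockout 2 it was 0.030, without knockout 1 it was 0.20, and over the 7 genes well above background on all 6 arrays, which leaves out Magi2, it was 0.19.

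Start regions of the 8 genes were sought in the reference used here, leaving out a chromosome that the count over all windows kept. The search gave start regions of 4 of the 8 genes. Shown are those of Nphs1, which with Magi2 stood apart from the others over the arrays, and of Ptpro and Clic3, which were both highest in knockout 2. Magi2 has 2 windows, which are counted but not printed. Each is the 250 bases before the start, on the strand of the gene, from RefSeq on GRCm38.p6, and capitals mark matches to GTGGGNG, a core of the motifs that Wt1 is known to bind.
Nphs1, chr7:30459808-30460057, plus strand: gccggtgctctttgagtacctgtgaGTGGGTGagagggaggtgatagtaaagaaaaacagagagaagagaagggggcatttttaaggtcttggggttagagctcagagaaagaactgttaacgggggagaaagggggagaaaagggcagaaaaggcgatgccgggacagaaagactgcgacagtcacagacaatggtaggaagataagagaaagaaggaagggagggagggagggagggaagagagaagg
Ptpro, chr6:137252049-137252298, plus strand: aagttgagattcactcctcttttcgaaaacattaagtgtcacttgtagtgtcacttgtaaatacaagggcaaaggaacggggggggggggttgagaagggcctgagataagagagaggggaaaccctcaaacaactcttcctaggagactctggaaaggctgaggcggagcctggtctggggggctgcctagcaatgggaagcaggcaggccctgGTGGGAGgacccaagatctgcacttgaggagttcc
Clic3, chr2:25456593-25456842, plus strand: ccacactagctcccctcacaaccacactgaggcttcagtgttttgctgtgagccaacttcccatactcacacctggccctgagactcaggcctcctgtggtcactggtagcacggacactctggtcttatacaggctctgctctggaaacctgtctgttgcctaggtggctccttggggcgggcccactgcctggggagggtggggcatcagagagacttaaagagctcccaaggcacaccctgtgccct

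Searched on both strands, GTGGGNG matched once in the Nphs1 window and once in the Ptpro window, and not in that of Clic3. It matched once in 1 of the 2 Magi2 windows, so that 3 of 5 windows held it. It matched in 28.1% of the 32851 windows of the same length in the reference. The longer Wt1 motif GCGTGGGAG, which contains the shorter one, matched in 0.405% of all windows, and the overlapping form GCGGGGGCG in 2.57%. Neither matched in these 5 windows. A match is a stretch of letters and not a binding site, and a window without one says nothing of the factor elsewhere.

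Nphs1 encodes nephrin, the transmembrane protein whose extracellular parts meet across the slit. Its normalised log2 signal was -0.62, -0.31 and -0.44 in the 3 knockouts and 0.18, -0.68 and -0.49 in the 3 controls. Control 1 stood above the other 5 arrays, and the 3 knockouts lay between control 1 and control 2. The means were -0.46 ± 0.16 in the knockouts and -0.33 ± 0.45 in the controls (SD, n = 3 each), and the log2 difference was -0.12 ± 0.23 (SE; limma adjusted p = 0.867). Without control 1 the difference took the other sign, at 0.13. The 95% interval of the difference ran from -0.69 to 0.44 on the log2 scale, or from 0.621-fold to 1.36-fold, so that Nphs1 was among the least precisely measured of the 8 genes.

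Magi2 encodes a scaffold protein with several PDZ domains that binds nephrin on the inner side of the slit. Its probe was dim. It was well above background on 1 of 3 knockout arrays and on 3 of 3 control arrays, so that it entered the test through the controls. The signal was -4.29, -4.52 and -4.59 in the 3 knockouts, and -4.78, -3.96 and -4.33 in the 3 controls. The highest and the lowest of the 6 arrays were both controls. The log2 difference was -0.11 ± 0.21 (SE; limma adjusted p = 0.874), with an interval from 0.649-fold to 1.33-fold, which sets no bound on a fall because 2 of 3 knockout arrays did not measure the probe above background. With quantile normalisation the difference was -0.21. The 2 knockout arrays on which Magi2 was not well above background were those of the second slide row, whose detection floor was the higher one.

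Podxl encodes podocalyxin, the sialomucin that gives the urinary face of the foot processes its negative charge. It read 0.59, 0.97 and 0.79 in the 3 knockouts and 0.76, 0.74 and 0.84 in the 3 controls. The knockouts held both the lowest and the highest of the 6 values, and the 2 means were 0.78 ± 0.19 in the knockouts and 0.78 ± 0.055 in the controls (SD, n = 3 each). The log2 difference was 0.0031 ± 0.10 (SE; limma adjusted p = 0.993), and the interval ran from 0.843-fold to 1.19-fold. Its sign turned with small changes of the setting, being -0.00026 when arrays were scaled by the median of detected probes, -0.0079 without control 1, -0.017 without control 2 and -0.090 without knockout 2.

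Ptpro encodes GLEPP1, a receptor-type tyrosine phosphatase of the podocyte's apical membrane. It read 0.83, 1.21 and 1.06 in the 3 knockouts and 0.77, 0.79 and 0.90 in the 3 controls. Knockouts 2 and 3 were above all controls, and knockout 1 lay inside the control range. The means were 1.03 ± 0.19 in the knockouts and 0.82 ± 0.071 in the controls (SD, n = 3 each). The log2 difference of 0.21 ± 0.10 (SE) had the smallest unadjusted p of the 8 genes, 0.0865 by limma, and an adjusted p of 0.468. The interval ran from 0.971-fold to 1.38-fold, and in the first slide row alone the difference was 0.012.

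Synpo encodes synaptopodin, an actin-associated protein of foot processes that is also found in the spine apparatus of neurons. Its 2 probes carry different transcript accessions, NM_177340 and NM_001109975, and the first was printed in 10 spots on each array. On that probe the signal was 1.09, 1.36 and 1.23 in the 3 knockouts and 1.19, 1.14 and 1.19 in the 3 controls. Knockout 1 was the lowest array and knockout 2 the highest, with the controls between them. The log2 difference was 0.049 ± 0.077 (SE; limma adjusted p = 0.839), and the interval, from 0.908-fold to 1.18-fold, was the narrowest of the 8.

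The repeated spots give a measure of the error within an array that the other 7 genes lack. The SD between the 10 spots of an array ran from 0.037 to 0.073 on the log2 scale before scaling between arrays, which leaves a standard error of 0.012 to 0.023 on an array's mean. The SD between animals after scaling was 0.13 in the knockouts and 0.033 in the controls. It also holds the error between arrays, which repeated spots do not measure. The other Synpo probe read -1.58, -1.47 and -1.63 in the 3 knockouts and -1.68, -1.44 and -1.33 in the 3 controls. Its log2 difference was -0.076 ± 0.10 (SE; limma adjusted p = 0.850, in a fit of 32945 probes). The 2 probes differed in sign, each by less than its standard error from 0, and with the mean of both probes Synpo was at -0.014.

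Wt1 encodes the zinc-finger transcription factor that podocytes keep through adult life and whose targets include nephrin and podocalyxin. It read 1.37, 1.94 and 1.73 in the 3 knockouts and 1.40, 1.39 and 1.63 in the 3 controls. Knockouts 2 and 3 were above all controls and knockout 1 was below all of them. The means were 1.68 ± 0.29 in the knockouts and 1.47 ± 0.13 in the controls (SD, n = 3 each). The log2 difference of 0.21 ± 0.15 (SE; limma adjusted p = 0.648) had an interval from 0.887-fold to 1.50-fold. It fell to 0.077 without knockout 2 and stood at 0.36 without knockout 1, and in the first slide row alone it was -0.10.

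Cdkn1c encodes p57, an inhibitor of cyclin-dependent kinases found in the nuclei of resting podocytes. It read 2.10, 2.51 and 2.51 in the 3 knockouts and 2.12, 2.17 and 2.25 in the 3 controls. Knockouts 2 and 3 were alike and above all controls, while knockout 1 was the lowest array. The log2 difference was 0.19 ± 0.12 (SE; limma adjusted p = 0.585), with an interval from 0.929-fold to 1.41-fold. It was 0.33 without knockout 1 and -0.079 in the first slide row alone.

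Clic3 encodes a member of the chloride intracellular channel family. It read 0.22, 0.56 and 0.34 in the 3 knockouts and -0.046, 0.21 and 0.30 in the 3 controls. Knockouts 2 and 3 were above all controls, and knockout 1 lay inside the control range. The log2 difference was 0.21 ± 0.12 (SE; limma adjusted p = 0.542), with an interval from 0.939-fold to 1.43-fold. In the first slide row alone it was 0.062.

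**Figure D1:**
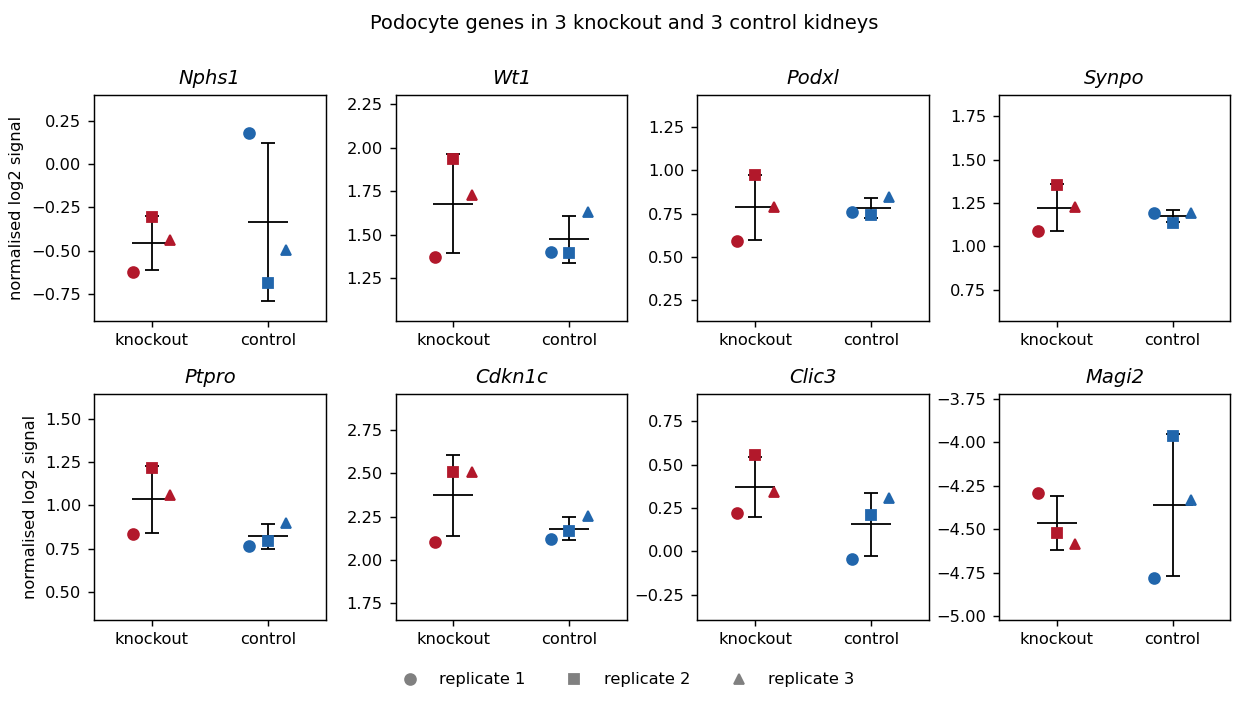
Normalised log2 signal of the 8 podocyte genes in 3 knockout kidneys (red) and 3 control kidneys (blue). Vertical axes each span the same number of log2 units, and black gives the mean and SD of each group. Marker shapes give the replicate number, which was not taken to pair animals. The groups overlap in every panel, and control 1 stands apart in Nphs1 at 0.18.

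The intervals say what the 6 arrays could and could not show. For all 8 genes the 95% interval held 0. Magi2 aside, it did not reach a 2-fold rise or a 2-fold fall for any of the other 7 genes. For 6 of these 7 it stayed below a 1.5-fold rise, and for Wt1 its upper end was at 1.50-fold. The widest intervals were those of Nphs1 and Magi2, the genes whose controls spread most, with control SDs of 0.45 and 0.41. A p above the threshold does not show that the transcripts were equal in the 2 groups, and with 3 animals in each the number of arrays limits the precision.

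**Figure D2:**
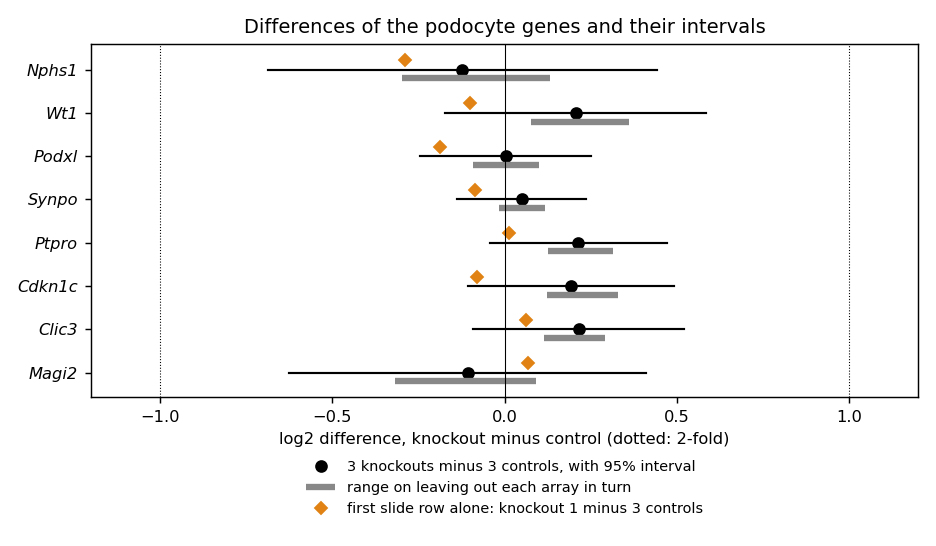
Log2 difference of each podocyte gene, knockout minus control (horizontal axis), with the 95% interval of the limma fit (black), the range on leaving out each array in turn (grey bar) and the value in the first slide row alone (orange diamond). Every interval crosses 0, that of Magi2 resting on a probe above background on 1 of 3 knockout arrays, and the diamond lies on the other side of 0 from the black point for 5 genes.

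The spread among the knockouts was shared by most of the genes. Knockout 2 was the highest of the 6 arrays for 6 of 8 genes, all but Nphs1 and Magi2, and it was above all 3 controls for the same 6. Over all genes tested, knockout 2 was the highest array in 15.3%. Knockout 1 was the lowest of the 6 arrays for 4 of 8 genes, Wt1, Podxl, Synpo and Cdkn1c, and over all genes in 20.8%. It was above all 3 controls for none of the 8. This order was noticed in the data and is given as a description.

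Counted from each gene's control mean, the 8 genes had medians of -0.083 (knockout 1), 0.26 (knockout 2) and 0.12 (knockout 3), and -0.056, -0.032 and 0.067 in controls 1, 2 and 3. The median over all genes tested lay between -0.017 and 0.030 on every array, which the scaling of each array to its own 75th percentile largely sets. Knockouts 2 and 3 were also the arrays of the second slide row, with its higher detection floor, and for those 2 animals row and animal cannot be told apart. A fit with the row as a block, in which only knockout 1 can be set against controls, gave 5 of 8 genes the opposite sign from the full comparison. They were Wt1, Podxl at -0.19, Synpo at -0.087, Cdkn1c and Magi2 at 0.069.

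In none of 5 other glomerular and tubular cell types was knockout 2 the array with the highest median. Markers of the glomerular endothelium had medians of -0.053, -0.020 and 0.019 in knockouts 1, 2 and 3 and of -0.00026, 0.046 and -0.070 in controls 1, 2 and 3. Mesangial markers lay at 0.11, 0.043 and 0.10 in the knockouts and 0.23, 0.12 and -0.28 in the controls. Parietal epithelial markers lay at 0.24, 0.14 and 0.50 in the knockouts and 0.13, 0.11 and -0.17 in the controls. Proximal tubule markers lay at -0.027, 0.060 and 0.035 in the knockouts and -0.025, -0.039 and 0.092 in the controls, so that the knockouts stood in the same order as for the podocyte genes but below control 3. Those of the loop, distal tubule and collecting duct lay at -0.011, -0.12 and -0.16 in the knockouts and -0.051, -0.0054 and 0.050 in the controls. The part of these cell types in the podocyte values was not tested.

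**Figure D3:**
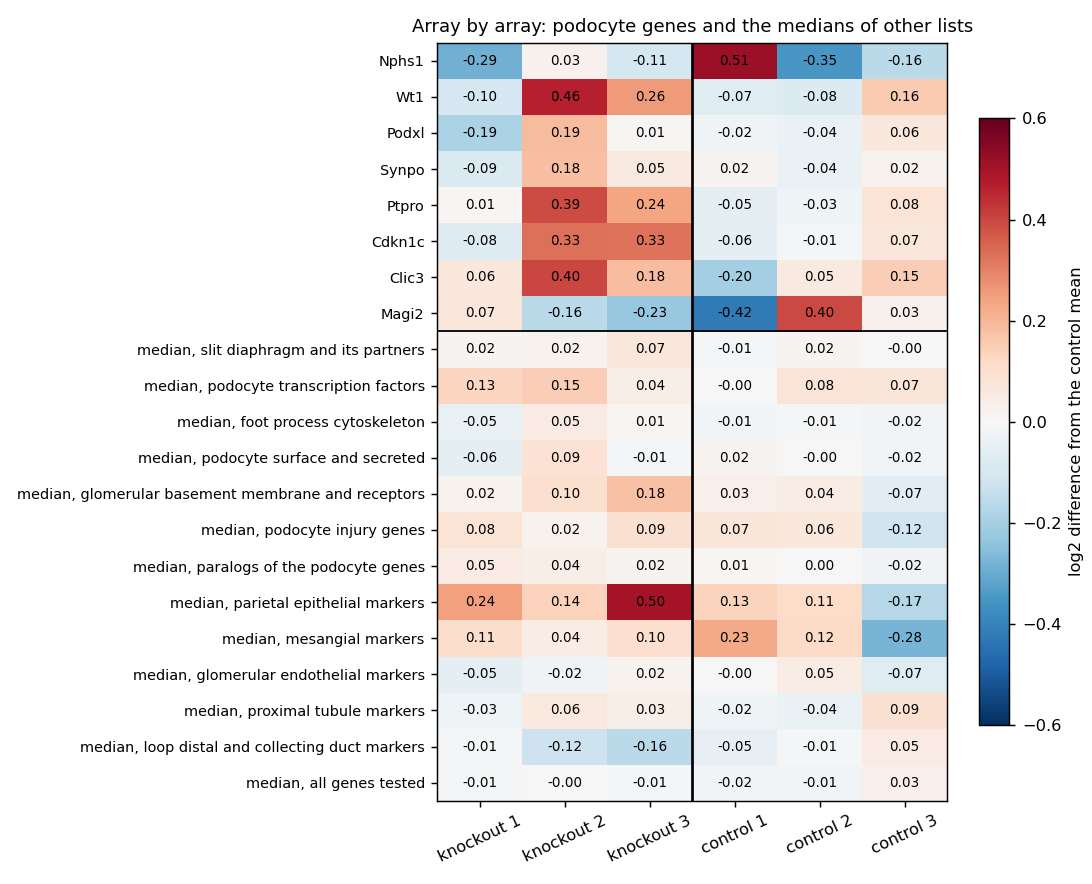
Log2 difference from the control mean on each array (columns) for the 8 podocyte genes (upper rows) and for the medians of 12 other lists and of all genes tested (lower rows), in colour and figures. Wt1, Podxl, Synpo, Ptpro, Cdkn1c and Clic3 are highest in knockout 2, with Cdkn1c at 0.33 in knockouts 2 and 3. Nphs1 and Magi2 follow no such order and are led by controls 1 and 2.

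To set each gene beside its fellows, its profile over the 6 arrays was centred on its own mean and compared with the mean profile of the other 7 genes, as the root mean square difference in log2 units. Synpo was nearest at 0.039 and Podxl next at 0.054. Ptpro was at 0.082, Cdkn1c at 0.10, Clic3 at 0.12 and Wt1 at 0.13. Nphs1 and Magi2 were farthest, at 0.34 each. The median of all genes outside the 8, measured from the mean profile of the 8, was 0.13. The 5 genes nearest to that mean profile were Tubgcp6 at 0.021, Pik3cb at 0.024, Plcb1 at 0.025, Tmem86b at 0.028 and Dnaaf6b at 0.029, among the genes tested outside the 8, over 6 arrays. The likeness is to a profile whose range from the lowest to the highest array was 0.30 log2 units. The measure counts the size of the differences as well as their order, so a gene with the same order but wider swings lies farther.

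Other lists of genes were measured as well. They held further podocyte, basement membrane and injury genes, relatives of the podocyte genes, and markers of parietal, mesangial, endothelial and tubule cells. Counts pooled over these 12 lists are therefore not counts of podocyte genes alone. In the pool, 124 of 130 genes were tested, and 0 passed in either direction by limma over all genes. Of the 124, 12 had an unadjusted p under 0.05, where 12.8% of all genes did. The groups did not overlap for 11.3% of the 124, 9 higher and 5 lower. Over all genes those shares were 9.04% higher and 10.5% lower. Knockout 2 had the highest median of the 6 arrays for transcription factors (0.15), the foot process skeleton (0.048) and surface and secreted genes (0.088). Knockout 3 had it for the slit diaphragm list (0.069), the basement membrane list (0.18) and the injury list (0.090).

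Among genes of the slit diaphragm and its partners, 0 of 12 tested passed in either direction, where 0.17% of all genes did. Their log2 differences were above 0 for 8 and below for 4, with a median of 0.031. Cd2ap, an adaptor that links the slit to actin, was at -0.017 ± 0.060 (log2 difference ± SE). The polarity gene Pard3 was the one of smallest p on this list, at -0.18 ± 0.051 (limma adjusted p = 0.259), with 1.11, 1.05 and 1.15 in the knockouts, all below the 1.25, 1.33 and 1.28 of the controls. That value is of its brightest probe: with the mean of its probes Pard3 was at -0.039 (adjusted p = 0.871), and with normexp and quantile normalisation at -0.085. Fat1, a giant cadherin, was at 0.16 ± 0.069 and, in the first slide row alone, at 0.044. Kirrel2 and Trpc6 were not well above background on any array and were not tested.

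The 7 podocyte transcription factors other than Wt1 all had differences above 0, from 0.052 to 0.19, and none passed. Foxc1 and Foxc2, forkhead factors of podocyte development, were each at 0.19, with adjusted p of 0.428 and 0.519 by limma. Lmx1b, the gene mutated in human nail-patella syndrome, was at 0.052 ± 0.13 and Tcf21 at 0.12 ± 0.19 (SE). The difference of Tcf21 rested on control 3, at -0.25 against 0.41 and 0.39 in the other controls and 0.20 to 0.39 in the knockouts, and was -0.092 without it. That of Lmx1b was -0.060 without knockout 1.

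Genes of the foot process skeleton had a median of 0.0060, with 0 of 17 passing. Actn4, an actin crosslinker, differed by 0.0060 ± 0.047 (SE), with SDs of 0.047 in the knockouts and 0.017 in the controls. Slc9a3r2, the NHERF2 scaffold that ties podocalyxin to ezrin, was at -0.21 ± 0.070 (limma adjusted p = 0.315), with 2.27, 2.37 and 2.44 in the knockouts against 2.50, 2.66 and 2.56 in the controls. The knockouts were all below the controls. Ezr, which encodes ezrin itself, was at -0.14 ± 0.091, with overlapping groups. Podocalyxin, their partner, was at 0.0031 as above.

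Among surface and secreted podocyte genes, 0 of 11 passed and the median was 0.033. Vegfa, the endothelial growth factor that podocytes and tubules secrete, was at -0.090 ± 0.043 (SE; limma adjusted p = 0.462). The knockouts read 3.98, 3.97 and 4.02 and the controls 4.08, 4.10 and 4.06, so that the groups did not overlap although they lay close together. Tdrd5 was at -0.27 ± 0.097 (adjusted p = 0.342), with all 3 knockouts below the controls.

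Of the basement membrane genes and their receptors, 0 of 14 passed, and the median was 0.090. Lama5, the laminin chain of the mature glomerular basement membrane, was at 0.20 ± 0.055 (SE; limma adjusted p = 0.262). It read 3.55, 3.46 and 3.59 in the knockouts and 3.29, 3.36 and 3.37 in the controls. Col4a3, a collagen chain made by podocytes, read 2.14, 2.07 and 2.13 in the knockouts and 2.02, 1.97 and 1.85 in the controls. The knockouts lay above all controls for both genes, and in the first slide row alone the differences were 0.21 and 0.19.

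Of the named genes other than Nampt, the largest differences were those of Cldn1 and Cd44, which are linked to podocyte injury and to the parietal cells of Bowman's capsule. Cldn1, a tight junction protein of parietal and other epithelial cells, read -2.62, -2.54 and -2.65 in the 3 knockouts and -3.13, -3.34 and -3.32 in the 3 controls. All knockouts lay above all controls, and the log2 difference was 0.66 ± 0.073 (SE; limma adjusted p = 0.0555). It passed with a filter on all 6 arrays (adjusted p = 0.0471) and without control 1 (adjusted p = 0.0473), and in no other setting. Without control 2, control 3, knockout 2 or knockout 3 the limma adjusted p was 0.192 to 0.215. The difference was 0.64 in the first slide row alone. With normexp and quantile normalisation it was 0.38 (adjusted p = 0.105). Cd44, a hyaluronan receptor of activated parietal cells and of leukocytes, was at 0.56 ± 0.17 (adjusted p = 0.280), at 0.24 in the first slide row alone and at 0.88 with the mean of its probes. It read -1.41, -0.88 and -0.98 in the knockouts and -1.42, -1.76 and -1.77 in the controls, where knockout 1 was just above control 1. Both genes are on the injury and the parietal list, and neither is particular to podocytes. Of the 11 injury genes tested and the 6 parietal markers, 0 passed, with medians of 0.042 and 0.26.

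Relatives of the podocyte genes were read beside them. The kinase inhibitor genes Cdkn1b and Cdkn1a, paralogs of Cdkn1c, were at 0.18 ± 0.047 and 0.46 ± 0.18 (SE), with limma adjusted p of 0.236 and 0.379. Cdkn1a, a target of p53, read -0.79, -0.23 and -0.075 in the 3 knockouts and -0.85, -0.80 and -0.82 in the 3 controls. Knockouts 2 and 3 stood apart, as they did for Cdkn1c, and knockout 1 lay just above the controls, with 0.035 in the first slide row alone. Without knockout 1, Cdkn1a was at 0.67 and passed (limma adjusted p = 0.0408). In that setting 95 genes passed, against 26 with all arrays. Without any one of the other 5 arrays Cdkn1a did not pass (limma adjusted p = 0.453 to 0.659). Cdkn1b read 2.44, 2.48 and 2.54 in the knockouts and 2.29, 2.32 and 2.29 in the controls, without overlap. Clic5, a paralog of Clic3 found in glomerular cells, was at -0.068 ± 0.13. It read 3.27, 3.76 and 3.67 in the knockouts and 3.66, 3.55 and 3.70 in the controls, with knockout 1 below the other 5 arrays. In all, 0 of 14 paralogs tested passed.

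Of the markers of glomerular endothelium, mesangium and tubule, none passed (0 on each of their 4 lists). In the glomerular endothelium, Ehd3 was at 0.091 ± 0.078 and Tek, the angiopoietin receptor, at -0.13 ± 0.083 (SE). Among mesangial markers, Serpine2 was at 0.36 ± 0.10 (limma adjusted p = 0.269), with all knockouts above the controls, and Gata3 at 0.26 ± 0.12. In the proximal tubule, Slc5a12 and Slc13a3 were at 0.14 ± 0.10 and -0.12 ± 0.088. In the distal nephron, Slc26a4, the pendrin gene of intercalated cells, was at -0.45 ± 0.079 (limma adjusted p = 0.138), with all knockouts below the controls, and the sodium channel gene Scnn1g was at -0.31 ± 0.18.

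**Figure D4:**
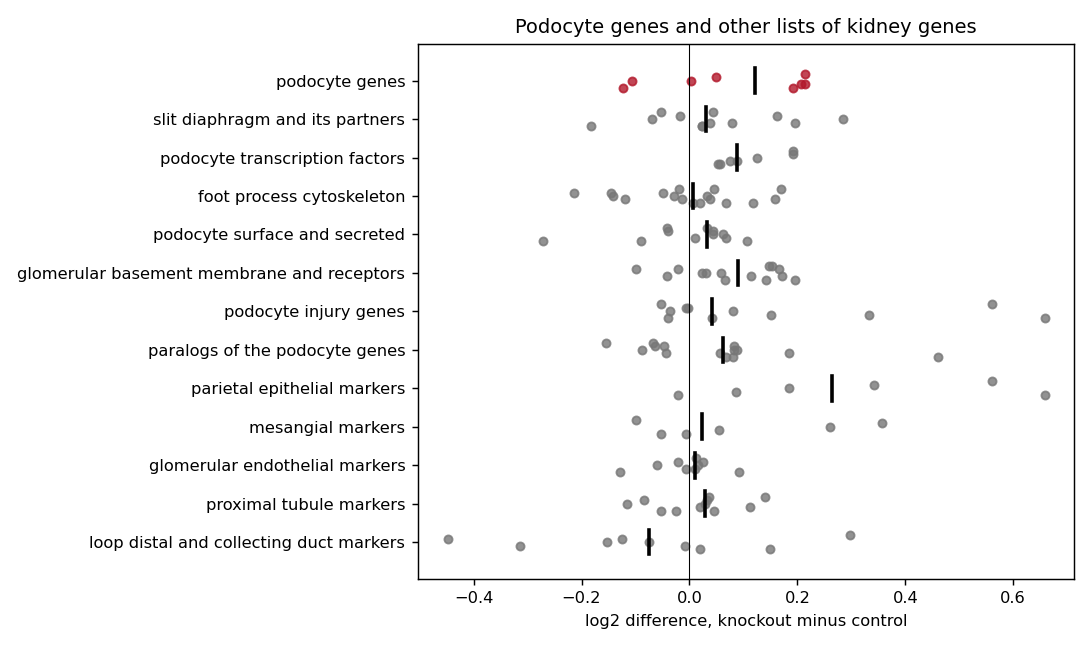
Log2 difference, knockout minus control (horizontal axis), of each tested gene of the 8 podocyte genes (red) and of the 12 other lists (grey), with the median of each list as a black bar; genes on 2 lists appear in both. The podocyte genes lie between -0.12 and 0.21, and the highest point, at 0.66, is Cldn1.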

How the data were processed

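The labels describe total RNA of whole kidneys, Cy3 label and an Agilent SurePrint G3 mouse array, 1 per animal. The deposited scanner files give linear intensity from Agilent Feature Extraction 10.7.1.1, which the file headers describe as corrected for background and spatial trend; deposited flag columns are 0 or 1. The authors' processed table holds linear ratios (column medians 0.075 to 0.084), equal within 1% to that intensity over a constant per array for at least 99.99% of probes with a ratio above 1. They are not centred by gene, and their software is not stated.

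Here outlier spots (92 to 151 per array) were left out, log2 intensity was averaged over a probe's spots, and the 75th percentile of the array was subtracted. A probe was kept if complete on 6 arrays and above background throughout either group. Accessions matched to RefSeq (GRCm38.p6, for names and start regions) named 28026 probes and 21154 genes; the brightest probe stood for a gene. The groups were compared with limma 3.58.1 in R 4.3.3, adjusted by Benjamini-Hochberg over 15307 genes, and the fit was tested on simulated data. Alternatives covered normalisation, filter, probe choice, variance, slide row, replicate number and each array left out.

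The members and lists were chosen with earlier results of these data known. Named were the 8 genes, Nampt, the 2 genes of smallest p of each other list, 8 of 10 further genes whatever their p (the other two are not reported here) and the 5 genes most like the mean profile; Kirrel2 and Trpc6 were named as not measured. Replicates are separate animals as the labels number them. Same numbers were not taken to pair animals. Correlations of their deviations from group means were 0.10, -0.096 and -0.025, against -0.091 to 0.12 between different numbers. With 3 arrays per group such values cannot exclude pairing. Plots used matplotlib 3.10.9.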

Additional observations from a re-analysis of the deposited data

How the results depend on the processing

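Over 16 other settings, 0 of the measured podocyte genes passed in any, and the lowest adjusted p of a podocyte gene was 0.141. Their median difference of 0.12 was -0.083 with slide row as a block and 0.030 to 0.20 on leaving out each array; it was 0.19 over 7 genes with a filter on all 6 arrays, which leaves out Magi2. The 26 genes called over the whole array became 11 with quantile normalisation (5 higher, 6 lower), 77 unfiltered for dim probes (64 and 13), 57 with a trended and robust variance (27 and 30), 16 with slide row as a block (5 and 11) and 0 with a replicate block. Leaving out each array gave 0 to 95, with 0 without control 2 or control 3, 1 without knockout 2 or knockout 3, and 95 without knockout 1. The replicate block, by a number not taken here to pair animals, left the differences as they were. With it Nampt had a limma adjusted p of 0.0891.

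Nampt also missed the threshold with quantile normalisation (0.0579), with slide row as a block, and on leaving out any array but knockout 1 (0.0754 to 0.184). Signs turned with slide row as a block for Wt1 (-0.10), Podxl (-0.19), Synpo (-0.087), Cdkn1c (-0.079), Magi2 (0.069), Ehd3 (-0.069), Slc13a3 (0.040), Actn4 (-0.045), Tubgcp6 (-0.11), Pik3cb (-0.080), Plcb1 (-0.065), Tmem86b (-0.10) and Dnaaf6b (-0.056). With quantile normalisation Lmx1b was at -0.032 and Dnaaf6b at -0.0016. With normexp and quantile normalisation Lmx1b was at -0.094, Cd2ap at 0.00029, Tubgcp6 at -0.036 and Dnaaf6b at -0.0091. Podxl was at -0.00026 with scaling by the median of detected probes, and Synpo at -0.014 with the mean of its probes. Leaving out each array turned signs too, over a range of -0.30 to 0.13 for Nphs1 (0.13 without control 1), -0.090 to 0.099 for Podxl (below 0 without control 1, control 2 or knockout 2), -0.017 to 0.12 for Synpo (without knockout 2), -0.32 to 0.091 for Magi2 (above 0 without control 2), -0.060 to 0.15 for Lmx1b (without control 1 or knockout 1), -0.092 to 0.24 for Tcf21 (without control 3), -0.064 to 0.026 for Cd2ap (above 0 without knockout 1), -0.015 to 0.032 for Actn4 (without control 1 or knockout 2), -0.17 to 0.079 for Clic5 (above 0 without knockout 1) and -0.029 to 0.12 for Tubgcp6 (without knockout 2). Of values that kept their sign, the first slide row alone gave 0.051 for Foxc2, -0.15 for Tdrd5, -0.31 for Ezr, 0.20 for Serpine2, -0.58 for Scnn1g and -0.36 for Clic5. The causes were not tested. Signal near background limits Magi2, and the number of animals limits all 8 genes.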
